A study of Mus musculus with 4 samples.

Results

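The Hist1 locus on mouse chromosome 13 was described by the intervals of FOXA2 and of elongating RNA polymerase II that chromatin immunoprecipitation and sequencing (ChIP-seq) listed there in the uterus. Its members were chosen by position, as every interval overlapping chromosome 13, 21750000 to 22150000 (the first window) or 23500000 to 23900000 (the second window). There were 66 members among 35977 intervals in all lists and 1523 on chromosome 13. They comprised 2 FOXA2 intervals at postnatal day 12 (PD12), 23 FOXA2 intervals in the adult, 25 polymerase domains at PD12 and 16 polymerase domains in the adult. The windows were proposed with the interval lists in view, so their counts, widths and overlaps are given as descriptions, and no test or p-value is attached to them.

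Whole uterus of female mice was used at both stages. The developing uterus was taken at PD12. The adult uterus came from pseudopregnancy, the hormonal state after a sterile mating, and each adult library named both days, 2.5 and 3.5. One chromatin sample was precipitated with a goat antibody to FOXA2 and one with a rabbit antibody to the polymerase carrying phosphate on serine 2 of its tail (POL2 here) for each stage. With 1 library for each of the 4 groups, differences between stages have no replicate check. The lists give positions only, without height or read count, and the depth of each library is unknown. Because all cells of the uterus were pooled, a FOXA2 interval inside a POL2 domain is not evidence of both in the same cells, and fewer cells with a signal cannot be told apart from less signal per cell.

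Replication-dependent histone genes encode the core histones H2A, H2B, H3 and H4, which wrap DNA in the nucleosome, and the linker histone H1, which binds the DNA between nucleosomes. They are short, lack introns, and are transcribed mainly while a cell copies its DNA. Their messages end in a stem-loop instead of a poly(A) tail. FOXA2 is a forkhead transcription factor that in the uterus marks the glandular epithelium, and serine-2 phosphorylation marks polymerase that is elongating along a gene.

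The build of the files is not named in the labels or headers, and the windows were set on the understanding that positions are mm9. The gene table at hand is for GRCm38, so no interval was assigned to a gene, and the label of the locus could not be checked gene by gene. That table was used for names and order only. It holds 56 Hist1 genes on chromosome 13, of which 54 are protein-coding (6 of H1, 13 of H2A, 15 of H2B, 9 of H3 and 11 of H4) and 2 are pseudogenes. The coding genes have a median length of 489 bp, and 49 of the 54 are 1000 bp or shorter. In the table's order the 56 entries, pseudogenes included, form a block of 19 genes from H2bc13 to H4bc24, a block of 5 from H2ac12 to H2bc11, a block of 29 from H4c8 to H1f1, a pair, H2bc1 and H2ac1, and the lone pseudogene H2af-ps2. The 19-gene and 5-gene blocks are separated by 39 other genes, 31 of them tRNA genes. Between the 5-gene block and the 29-gene block lie 147 genes, of which 75 are Vmn1r genes and pseudogenes, which belong to the vomeronasal receptors of pheromone sensing, and 46 are tRNA genes. One other coding gene, Hfe, an iron-homeostasis gene, stands inside the 29-gene block.

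Of the 54 coding genes, 51 matched the RefSeq promoter table (GRCm38.p6), which covers 250 bases before to 50 after each start. The sequences below show what the genes that give the locus its name carry upstream, for an H1, an H2A, an H3 and an H4 gene (each the first of its class in the table's order with a motif) and for the first H2B gene with an octamer. Each is the 250 bases before the start, 5′ to 3′ on the gene's strand (minus for H1f5 and H4c12, plus for the others). Capitals mark the TATA box (searched as TATAAA), the CCAAT box (searched as CCAAT), the octamer bound by OCT1 (searched as ATTTGCAT) and the core of the forkhead motif (searched as TGTTTAC), each on both strands.
H1f5: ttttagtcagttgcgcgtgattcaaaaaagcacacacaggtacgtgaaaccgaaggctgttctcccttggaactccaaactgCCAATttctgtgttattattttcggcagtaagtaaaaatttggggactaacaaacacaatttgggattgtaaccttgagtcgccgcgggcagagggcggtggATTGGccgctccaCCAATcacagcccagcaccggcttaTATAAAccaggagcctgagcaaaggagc
H2ac13: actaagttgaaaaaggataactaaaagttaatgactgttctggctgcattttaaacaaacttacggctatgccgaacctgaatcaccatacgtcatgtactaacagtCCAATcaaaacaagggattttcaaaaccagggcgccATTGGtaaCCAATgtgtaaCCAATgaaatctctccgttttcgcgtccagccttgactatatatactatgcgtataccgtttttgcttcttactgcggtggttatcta
H2bc14: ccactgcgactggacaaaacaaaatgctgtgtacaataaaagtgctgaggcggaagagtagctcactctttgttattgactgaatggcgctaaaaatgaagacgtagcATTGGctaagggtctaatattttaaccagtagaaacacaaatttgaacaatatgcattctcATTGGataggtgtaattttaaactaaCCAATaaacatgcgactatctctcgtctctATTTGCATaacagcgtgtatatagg
H3c10: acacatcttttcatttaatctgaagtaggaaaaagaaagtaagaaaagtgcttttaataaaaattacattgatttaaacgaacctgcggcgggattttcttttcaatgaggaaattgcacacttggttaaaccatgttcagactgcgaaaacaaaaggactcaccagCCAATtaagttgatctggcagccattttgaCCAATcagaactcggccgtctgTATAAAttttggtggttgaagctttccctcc
H4c12: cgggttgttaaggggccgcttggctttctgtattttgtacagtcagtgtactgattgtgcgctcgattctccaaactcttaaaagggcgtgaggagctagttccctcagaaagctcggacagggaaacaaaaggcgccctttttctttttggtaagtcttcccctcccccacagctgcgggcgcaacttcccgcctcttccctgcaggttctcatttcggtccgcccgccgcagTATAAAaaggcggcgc

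TATAAA was found in 31 of the 51 Hist1 promoters (60.8%) and in 14.2% of the 27025 promoters of the table. CCAAT was found in 43 (84.3%, against 37.9% of all promoters). It was present in every H1, H2A, H2B and H3 promoter that matched and in 3 of 11 of H4. The octamer was found in 10 promoters (19.6%, against 1.75%), 5 of H2A and 5 of H2B. H2A and H2B genes often stand back to back: of 13 neighbouring pairs, 11 had a strand for both genes in the promoter table and 10 of these were transcribed away from each other, and the promoter windows of these 10 shared a run of 220 to 279 bases (median 265), so that one stretch of DNA serves both windows and its motifs are counted for both genes. The forkhead core was in none of the 51 Hist1 windows and in 3.55% of all promoters, which says only that these letters are not in these windows. A single pair, H2bc23 and H4bc24, had identical windows (300 of 300 positions). Both were counted as H2B genes, H4bc24 by its older symbol in spite of its present name. The next most alike pair, H4c18 and H4c9, was equal at 149 positions without gaps. How reads matching more than 1 copy were placed is not stated in the labels, and the part of near-identical copies in the lists was not tested.

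Taken over both windows, all 4 lists were denser than on the rest of chromosome 13. The windows together span 800 kb, or 0.685% of the stretch from the first to the last listed base of the chromosome (3536400 to 120263599), and held 7.04% of its PD12 POL2 domains, 3.02% of its adult POL2 domains, 3.83% of its adult FOXA2 intervals and 5.26% of its PD12 FOXA2 intervals. PD12 POL2 stood at 31.2 domains per Mb (95% Poisson limits 20.2 to 46.1) in the windows and 2.85 per Mb on the rest, a ratio of 11.0. Adult POL2 stood at 20.0 per Mb (11.4 to 32.5) and 4.43 per Mb, a ratio of 4.52, which in the first window alone was 2.26 (0.616 to 5.79). Adult FOXA2 stood at 28.7 per Mb (18.2 to 43.1) and 4.99 per Mb, a ratio of 5.77. The 2 PD12 FOXA2 intervals, both in the second window, gave 2.50 per Mb (0.303 to 9.03) against 0.311, limits that include the density of the rest. The first window had none. These limits cover counting error only. The gene density of the windows was not measured, since no annotation of the files' build was used, and its part in these ratios was not tested.

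**Figure D1:**
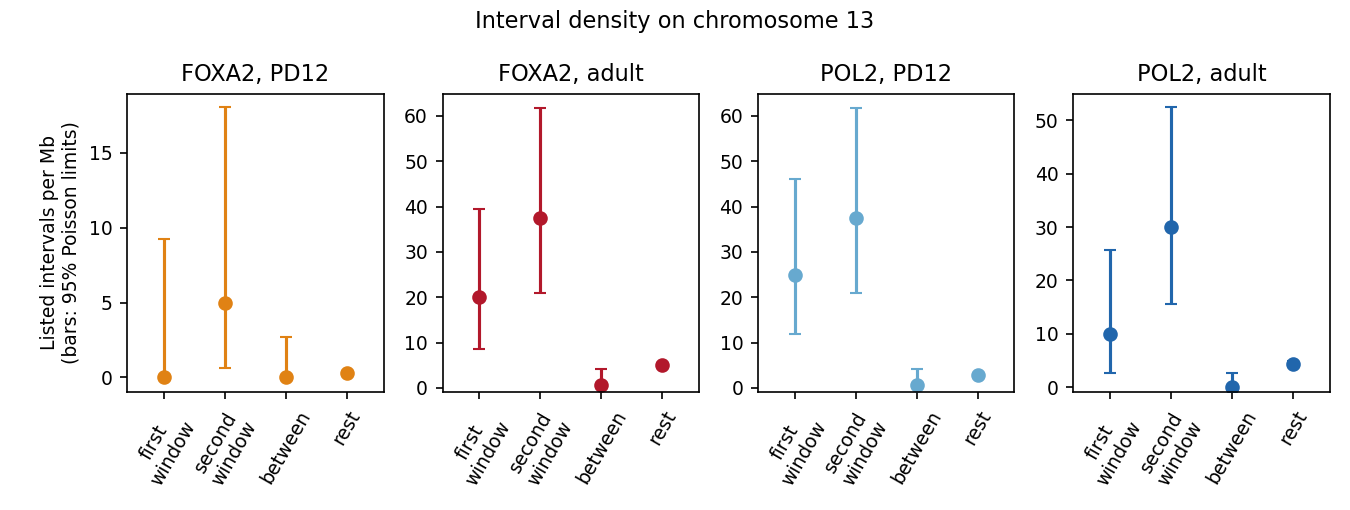
Listed intervals per Mb in the first window, the second window, the region between them and the rest of chromosome 13, for each of the 4 lists (1 library each), on linear axes that differ between panels; bars are 95% Poisson limits. In both POL2 panels and in the adult FOXA2 panel each window lies above the rest, with adult POL2 in the first window (10 per Mb, limits 2.72 to 25.6, which include the 4.43 of the rest) closest to it.

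Few intervals lay between the windows. Across the 1.35 Mb between them 1 adult FOXA2 interval (23460566 to 23461695) and 1 PD12 POL2 domain (23443800 to 23449399) were listed, and no adult POL2 domain. The surroundings were not empty on the other side, where the 400 kb directly before the first window held 6 PD12 and 8 adult POL2 domains. The member nearest to the start of the first window began 51.6 kb inside it, and the nearest interval outside, an adult POL2 domain of 5400 bp, ended 126 kb before it. At the end of the second window the last member ended 43.0 kb inside and the next interval began 196 kb outside. The ends of the windows that face each other were closer to members, at 13.6 and 7.6 kb, and the nearest intervals outside lay 1294 kb after the first window and 38.3 kb before the second window.

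**Figure D2:**
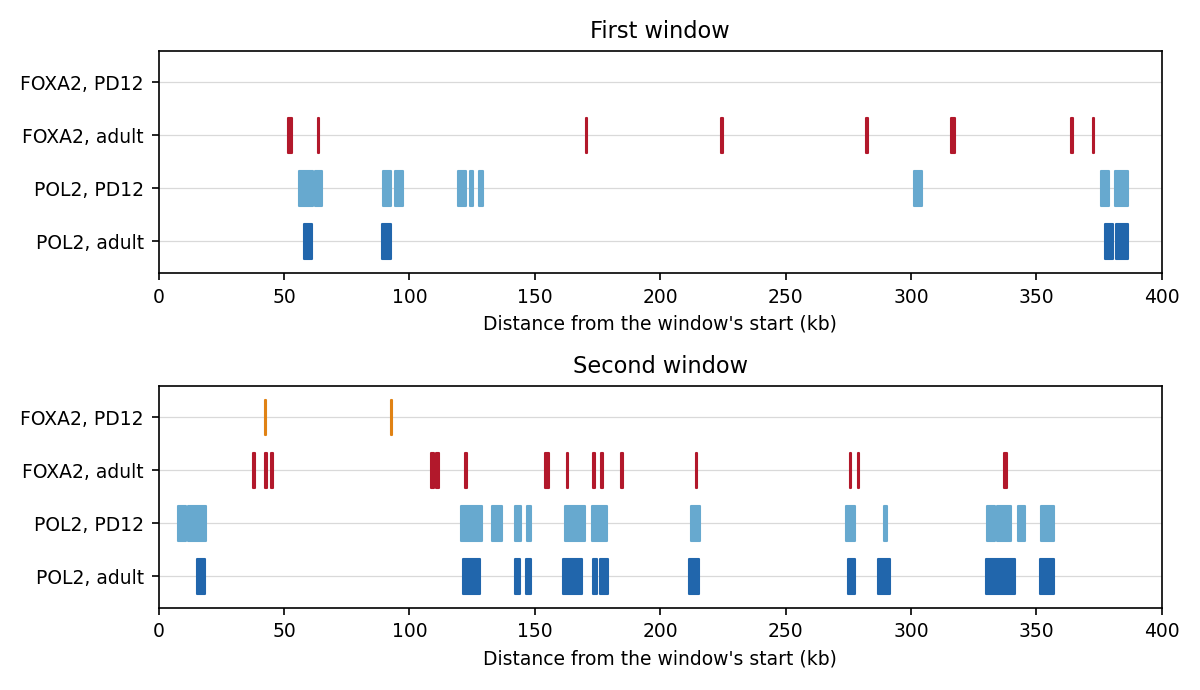
Position and width, to scale, of every listed interval in the windows, as distance from each window's start in kb, with 1 row per antibody and stage. The first window has 4 adult and 10 PD12 POL2 domains and no PD12 FOXA2 interval, and the second window has 12 adult and 15 PD12 POL2 domains in much the same places.

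For POL2, the order of the stages in the windows was the reverse of that on the rest of the chromosome. On the rest of chromosome 13 the adult list was the longer one, with 513 domains against 330 at PD12, a ratio of 1.55. In the windows the PD12 list was the longer one, with 25 domains against 16. Adult domains were thus 39.0% (exact binomial 95% limits 24.2 to 55.5) of the domains of both stages, compared with 60.9% (57.5 to 64.2) on the rest. These limits count every domain as independent, though all 16 adult domains overlapped PD12 ones and all lay in 13 stretches. They are therefore no test of the reversed order. Covered length showed the same order. PD12 domains covered 98.2 kb of the windows (12.3%) and adult domains covered 69.0 kb (8.62%), whereas on the rest they covered 1.86% and 2.69%. The first window carried most of the difference, with 10 PD12 and 4 adult domains (32.6 and 14.2 kb), and the second window had 15 and 12 (65.6 and 54.8 kb). After joining domains across gaps of 5 kb or less, the counts were 13 at PD12 and 12 in the adult. Domains at or above the median width of their own list numbered 6 and 6, but those medians differ, at 5400 bp for PD12 and 4800 bp for the adult. At a common minimum width the PD12 count was the higher one, with 6 against 4 domains of 5400 bp or more and 8 against 6 of 4800 bp or more. List length depends on depth and on the caller's threshold, and their part in the counts was not tested.

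Tiles of 400 kb, the length of a window, were laid along the whole chromosome from each window's start. The first window had 10 PD12 POL2 domains, a count that had rank 3 of 291 tiles together with 2 others, and 4 adult ones, which had rank 41 together with 14 others. Its excess of PD12 over adult domains by count, 6, was the highest of the 291. A tile overlapping the second window was among those tied at 10. The second window had the highest count of 290 tiles for PD12 POL2 domains (15) and rank 4 for adult ones (12), and its excess of 3 had rank 3 together with 2 others. A tile overlapping the first window, with 11 PD12 and 6 adult domains, was among those with a larger excess. Among tiles that overlapped neither window, 40 in the first set and 44 in the second set had 5 or more domains at a stage. Of these, 6 and 9 had more PD12 than adult domains, so an excess at PD12 was seen elsewhere too. By covered length the windows ranked lower than by count. The first window had rank 18 of 291 at PD12 (32.6 kb) and rank 67 in the adult (14.2 kb). The second window had rank 6 of 290 at PD12 (65.6 kb) and rank 12 in the adult (54.8 kb). Larger PD12 excesses in length lay elsewhere, as in tiles with 92.8 against 63.2 kb (first set) and 63.8 against 23.2 kb (second set).

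**Figure D3:**
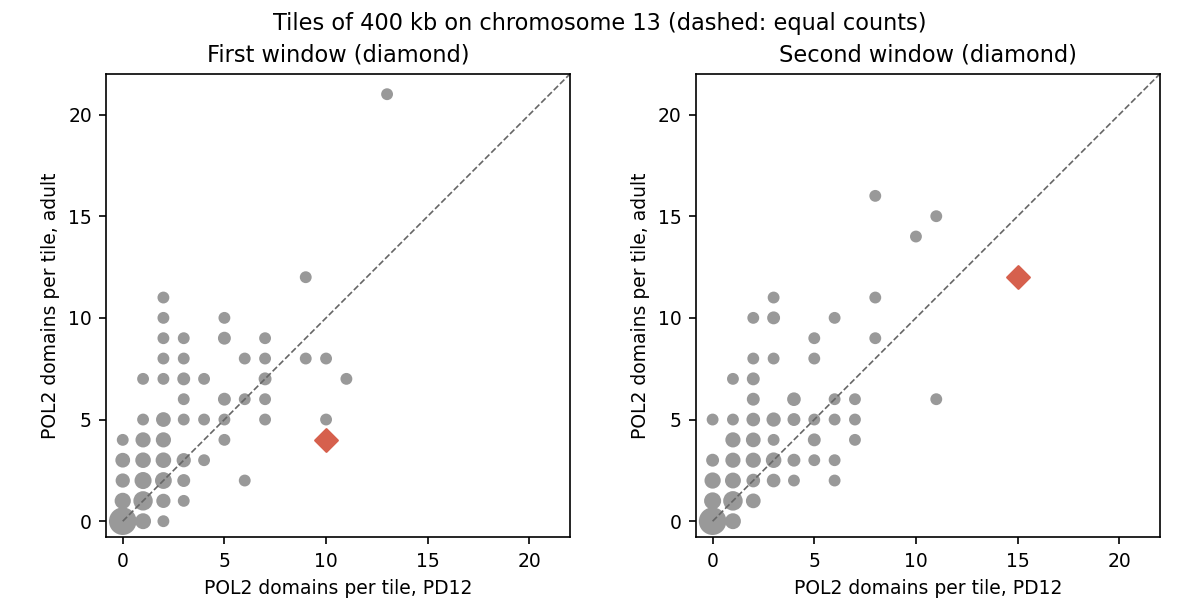
POL2 domains per 400-kb tile of chromosome 13 at PD12 (x axis) and in the adult (y axis), with tiles laid from the first window (left) and from the second window (right); larger grey points stand for more tiles, the diamond is the window, and the dashed line marks equal counts. The windows, at 10 and 4 and at 15 and 12 domains, lie below the line, while most tiles with many domains lie above it.

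Every adult POL2 domain of the windows was also listed at PD12. The overlap, of at least 1 bp, was found for 16 of 16 adult domains (100%, limits 79.4 to 100), against 48.9% of adult domains on the rest of chromosome 13 and 54.4% over the whole list. In the other direction 16 of 25 PD12 domains (64.0%, 42.5 to 82.0) overlapped an adult one, against 79.7% on the rest of the chromosome and 79.9% over the whole list, limits that include both. Thus 9 PD12 domains had no adult counterpart, 6 of them in the first window and 3 in the second window, and no adult domain was without a PD12 one. In the tiles with 5 or more domains at a stage, 52.6% (first set) and 51.5% (second set) of adult domains overlapped a PD12 domain. Most of those tiles had more adult than PD12 domains (30 of 40 and 33 of 44), unlike the windows, and the part of domain density and of the balance of the stages in the overlap was not tested. With 50% of both domains required to overlap, the adult share was 68.8% in the windows and 32.7% on the rest, and with centres within 500 bp it was 50% and 14.4%. By length, 58.8 kb were shared, which was 85.2% of the adult and 59.9% of the PD12 covered length in the windows, and on the rest 49.7% and 71.8%.

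Domains of the windows were short. At PD12 they ran from 1200 to 8400 bp with a median of 3400 bp, against a median of 5000 bp on the rest, and in the adult from 1800 to 11400 bp with a median of 3400 bp, against 4200 bp. Even the shortest domain, of 1200 bp, was longer than the median Hist1 coding gene of the table. Domains of 10 kb or wider numbered 0 of 25 at PD12 and 1 of 16 in the adult, while on the rest they made up 18.2% and 13.6%. The exact binomial upper limit for 0 of 25, 13.7%, counts neighbouring domains as independent and is no test of this difference. The order by width depended on the spacing of the domains: joined across gaps of up to 5 kb, they had a median of 9200 bp at PD12, above the 5500 bp of the rest, and of 5100 bp in the adult, against 5000 bp. PD12 domains without an adult counterpart were 1200 to 4000 bp wide (median 3200), and shared PD12 domains 1400 to 8400 bp (median 4400). All POL2 starts of both whole lists lie on a grid of 200 bp, so ends are known to that step at best.

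**Figure D4:**
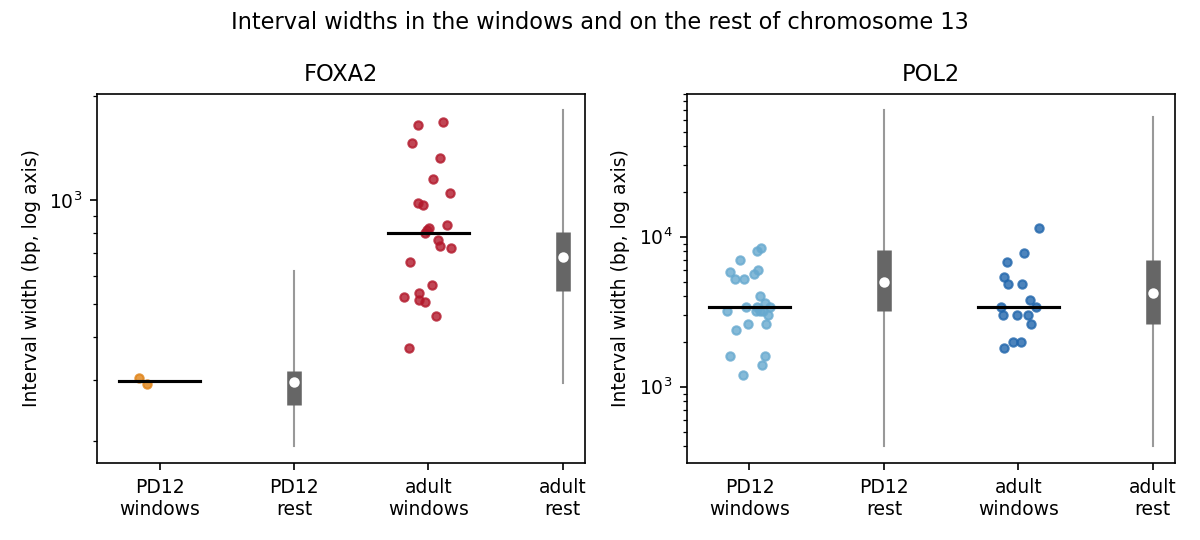
Width of each interval in the windows (coloured points, black line at the median) beside the rest of chromosome 13 (white point, median; thick bar, quartiles; thin line, lowest to highest), in bp on a log axis. POL2 medians in the windows, 3400 bp at both stages, lie below those of the rest, and the adult FOXA2 median, 803 bp, lies above that of the rest, 682 bp.

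Joined over both stages, the POL2 domains of the windows formed 13 stretches. PD12 covered more of the stretch than the adult in 9 (69.2%, limits 38.6 to 90.9), the adult more in 3, and 1 was equal. On the rest of the chromosome PD12 covered more in 27.2% of 426 stretches. Of the 13, 11 had domains of both stages, 2 had PD12 domains alone and none had adult domains alone, whereas 188 of the 426 had adult domains alone.

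In the first window, all 5 stretches were covered more at PD12. The first, at 21805800 to 21814999, had 8.2 kb at PD12 in 2 domains (21805800 to 21811399, the widest of the window, and 21812400 to 21814999) and 3.0 kb in the adult in 1 domain (21808000 to 21810999). The next, at 21839200 to 21847399, had 6.4 and 3.4 kb. There the adult domain, 21839200 to 21842599, matched the PD12 domain 21839400 to 21842599 to within 200 bp, and the neighbouring PD12 domain, 21844200 to 21847399, had no adult counterpart. At 21869400 to 21879399, 3 PD12 domains of 3200, 1200 and 1600 bp covered 6.0 kb, and a lone PD12 domain of 3400 bp lay at 22051200 to 22054599. No adult domain was listed at either place, the nearest being 26.8 kb from the former and 72.8 kb from the latter. The last stretch, at 22125600 to 22136399, was nearly equal, with 8.6 and 7.8 kb. Its smaller domains, 22125600 to 22128999 at PD12 and 22127400 to 22130399 in the adult, overlapped by 1600 bp. Its larger domains, 22131200 to 22136399 at PD12 and 22131600 to 22136399 in the adult, ended at the same base.

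In the second window the stages lay closer together, apart from its first stretches. At 23507600 to 23518799, PD12 had 10.2 kb in 2 domains (the wider one at 23511800 to 23518799) and the adult 3.4 kb in 1 (23515200 to 23518599), the largest difference of the 13. The longest stretch, 23620600 to 23648399, had 16.4 kb at PD12 in 4 domains and 10.8 kb in the adult in 3. It held the widest PD12 domain of the windows, 23620600 to 23628999 (8400 bp), over an adult domain of 6800 bp, and a PD12 domain of 4000 bp at 23633000 to 23636999 without an adult counterpart. At 23661200 to 23679199 the lengths were 14.0 and 12.6 kb. A PD12 domain of 8000 bp (23662000 to 23669999) and an adult one of 7800 bp (23661200 to 23668999) largely coincided there, shifted by 800 to 1000 bp, followed by 1 PD12 domain of 6000 bp where the adult list had 2, of 1800 and 3000 bp. The remaining stretches were of similar length at both stages or longer in the adult. They had 3.6 kb at PD12 and 3.8 kb in the adult at 23711600 to 23715999, 3.4 and 2.6 kb at 23774200 to 23777599, and 5.2 and 5.4 kb at 23851600 to 23856999. At 23787000 to 23791799 the adult covered 4.8 kb and PD12 1.4 kb, the only stretch in which the adult exceeded PD12 by more than 0.2 kb. At 23830000 to 23845399 both covered 11.4 kb, in 3 domains at PD12 (the widest at 23834200 to 23839999) and in a single adult domain of 11400 bp, the widest of the windows. Of the 17 overlapping pairs of PD12 and adult domains in both windows, 9 had both ends within 1 kb of each other, and the PD12 domain was the wider one in 10.

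**Figure D5:**
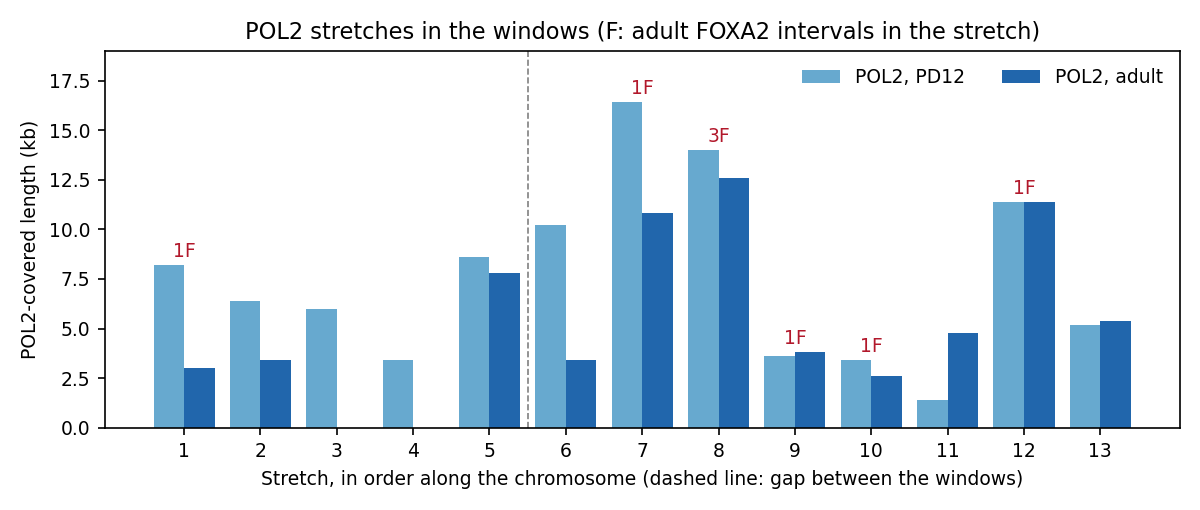
Length covered by POL2 domains at PD12 (light) and in the adult (dark), in kb, for the 13 stretches in order along the chromosome (1 library per bar); a number with F gives the adult FOXA2 intervals in the stretch. Stretches 3 and 4 have no adult domain, and stretch 11 is the one with a clear adult excess, 4.8 against 1.4 kb.

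FOXA2 in the windows was almost all adult. The 23 adult intervals stood against 2 at PD12, a ratio of 11.5, compared with 16.1 on the rest of the chromosome and 12.7 over the whole lists. Adult intervals were 92.0% (74.0 to 99.0) of both stages' intervals in the windows and 94.1% on the rest, so here the stages differed about as they did on the chromosome. Both PD12 intervals lay in the second window. One, at 23542437 to 23542740 (304 bp), lay wholly inside an adult interval, 23542287 to 23543117 (831 bp). The other, at 23592669 to 23592961 (293 bp), had no adult interval within 15.7 kb. Thus 1 of 2 PD12 intervals was shared, against 83.3% on the rest and 72.1% over the whole list, and 1 of 23 adult intervals (4.35%, 0.110 to 21.9), against 5.19% on the rest and 5.65% over the whole list. Neither PD12 interval lay in a POL2 domain of PD12 (0 of 2, against 11.1% on the rest and 20.3% over the whole list) or of the adult (0 of 2, against 22.2% and 29.9%). They were 23.6 and 27.6 kb from the nearest PD12 domain.

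The adult FOXA2 intervals ran from 373 to 1684 bp, with a median of 803 bp against 682 bp on the rest. By window the median was 696.5 bp in the first window, near that of the rest, and 831 bp in the second window. Close spacing, too, was a trait of the second window. The median gap from an interval to its nearest neighbour on either side was 7.25 kb in the windows and 32.7 kb on the rest. Another interval lay within 5 kb for 9 of 23 (39.1%, 19.7 to 61.5), against 15.7% on the rest. All 9 were in the second window, and no interval of the first window had another that close. Density alone brings intervals closer, and its part in the spacing was not tested. By count the second window, with 15, had the most of its 290 tiles, and the first window, with 8, had rank 5 of 291 together with 5 others. A tile overlapping the second window, with 13, was among those ahead of the first window.

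About 1 in 3 adult FOXA2 intervals of the windows lay in a POL2 domain. For adult domains it was 7 of 23 (30.4%, 13.2 to 52.9), against 13.1% on the rest and 19.4% over the whole list. For PD12 domains it was 8 of 23 (34.8%, 16.4 to 57.3), against 6.57% on the rest and 11.4% over the whole list. POL2 covers more of the windows than of the rest, as given above, and the part of that coverage in these shares was not tested. Of the adult POL2 domains of the windows, 7 of 16 (43.8%, 19.8 to 70.1) held an adult FOXA2 interval, against 13.1% on the rest, and all 7 were in the second window. Over the whole list the share was 12.5%. Of the PD12 domains, 7 of 25 (28.0%, 12.1 to 49.4) held an adult FOXA2 interval, against 9.09% on the rest and 10.6% over the whole list. No PD12 domain held a PD12 FOXA2 interval (0 of 25, against 1.21% on the rest and 1.62% over the whole list).

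The 7 adult FOXA2 intervals in POL2 domains of both stages lay in 5 stretches of the second window. The first was 23622087 to 23623136 (1050 bp), within the wide domain at the start of the longest stretch. Then came 3 in the stretch at 23661200 to 23679199: 23662929 to 23663389 (461 bp), 23673079 to 23673844 (766 bp) and 23676317 to 23677297 (981 bp). The adult POL2 list has separate domains at the last 2 of these, where PD12 has a single domain. The others were 23714135 to 23714858 (724 bp), 23775629 to 23776166 (538 bp) and 23837259 to 23838102 (844 bp), the last inside the widest adult domain. One more, 21813511 to 21814075 (565 bp) in the first window, lay in a PD12 domain with no adult counterpart, 2.51 kb from the nearest adult domain. It was the only FOXA2 interval of the windows in a domain of 1 stage alone.

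The remaining 15 adult FOXA2 intervals lay in no POL2 domain of either stage, and their widths, 373 to 1684 bp with a median of 819 bp, covered those of the 7 in domains of both stages (461 to 1050 bp, median 766). Split by adult domains alone, the windows had medians of 766 bp inside and 811 bp outside. With that split on the rest of chromosome 13, adult intervals inside adult domains were the wider ones, with a median of 863 bp against 663 bp. Several of the 15 lay just beside a domain. The widest, 21801604 to 21803287 (1684 bp), ended 2.51 kb before the first PD12 domain of the first window, 22122427 to 22123085 (659 bp) ended 2.51 kb before a PD12 domain, and 23778928 to 23779438 (511 bp) began 1.33 kb after a domain with the same end at both stages. The interval 23654074 to 23655726 (1653 bp) lay 5.67 kb after the nearest PD12 domain and 5.47 kb before the nearest adult one, and 23684547 to 23685069 (523 bp) lay 5.75 kb from a PD12 domain and 5.35 kb from an adult one.

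Others lay farther from POL2, in groups in the second window and spread out in the first window. A group of 3, 23537573 to 23538538 (966 bp), 23542287 to 23543117 (831 bp) and 23544931 to 23545733 (803 bp), surrounded the shared PD12 interval and lay 18.8 to 26.1 kb from the nearest PD12 domain. A pair at 23608678 to 23609829 (1152 bp) and 23610612 to 23611931 (1320 bp) lay 10.8 and 8.67 kb before the longest stretch. In the first window the intervals 21920394 to 21920766 (373 bp), 21974455 to 21974961 (507 bp), 22031895 to 22032713 (819 bp), 22065902 to 22067366 (1465 bp) and 22113947 to 22114680 (734 bp) were spread over the part with few domains, at 41.0, 76.2, 18.5, 11.3 and 10.9 kb from a PD12 domain. The 16 adult FOXA2 intervals outside adult domains had a median distance of 12.0 kb to the nearest adult domain, against 99.1 kb on the rest, and 7 of them were within 10 kb.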

How the data were processed

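ChIP-seq of FOXA2 and of serine-2-phosphorylated polymerase was done on whole mouse uterus at PD12 and in pseudopregnancy, 1 library each. Per the submitters' processing notes reads were aligned with BWA; its version, the peak caller, threshold, use of input and build were not given in the sources used. Per the file headers, the authors' deposited lists hold chromosome, start and end of called intervals and no score, so depth is unknown. The windows, gene lists and comparisons were chosen with earlier results of these data known. Positions were counted as inclusive, an overlap needed 1 bp, and the rest of chromosome 13 ran from its first to its last listed base without the windows. Named were every FOXA2 interval, the 5 widest POL2 domains of each stage and window, the widest domains of 1 stage and every domain holding FOXA2. Limits are exact Poisson (counts) or Clopper-Pearson (shares) at 95%, cover counting error only and treat neighbouring intervals as independent. The overlap calculation was tested on planted lists. Alternatives changed windows, overlap, joining of domains, width and the compared region. Hist1 genes were found by their older symbols. Python 3.11.15, numpy 2.4.6, scipy 1.17.1, pandas 2.3.3 and matplotlib 3.10.9 were used.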

Additional observations from a re-analysis of the deposited data

How the results depend on the processing

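Over 19 values and 90 alternatives, 67 stayed within the 95% limits of the value (within 1.5 times for covered shares, median widths and the stage ratio), 17 moved outside and 6 changed direction. Ratios are to the rest of chromosome 13. PD12 FOXA2 rests on 2 intervals: its density ratio, 8.05, was 0 in the first window alone and in the widest 50% of intervals, its covered ratio, 7.68, was 0 in the first window, 15.4 in the second window and 4.90 with windows 50 kb shorter at each end, its width ratio, 1.01, was 0.930 against the other chromosomes, and its overlap with the adult, 50%, was 0% with 50% of both intervals. For adult FOXA2 the overlap with PD12, 4.35%, was 0% with 50% of both intervals and 0% in the widest 50%. For PD12 POL2 the density ratio, 11.0, was 5.61 in the widest 50%, the covered ratio, 6.60, was 4.38 in the first window and 4.40 against the other chromosomes, the width ratio, 0.680, was 1.67 with domains joined across 5 kb, and the overlap with the adult, 64.0%, was 32.0% with centres within 500 bp and 84.6% with domains joined. For adult POL2 the density ratio, 4.52, was 2.26 in the first window, the covered ratio, 3.21, was 1.32 in the first window and 5.09 in the second window, the width ratio, 0.810, was 1.02 with domains joined, and the overlap with PD12, 100%, was 68.8% with 50% of both domains, 50% with centres within 500 bp and 50% in the widest 50%. The ratio of adult to PD12 POL2 counts, 0.64, was 1 in the widest 50% of each list, and 0.667 and 0.75 at common minimum widths, which were chosen after seeing the data. An overlap of 50% of both can only lower a share, by its construction; the cause of the other differences was not tested. No paired analysis was possible because there is 1 library per group. Unknown depth limits every comparison of counts between stages.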
